A study of Homo sapiens with 36 samples.

Results

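The 10 amino acid transporter genes described here were SLC7A11, SLC7A5, SLC3A2, SLC7A1, SLC7A3, SLC1A4, SLC1A5, SLC38A2, SLC38A1, and SLC6A9. They were taken by name from the 18078 genes listed in at least 1 of 3 gene tables, and all 10 were among the 15050 genes listed in every table. The tables came from 3 RNA-seq experiments on human embryonal carcinoma cells that resist cisplatin, a type of testicular germ cell tumor (TGCT). Every experiment compared 4 arms of 3 libraries, 36 in all. NT2/D1-A4 cells and 2102EP-C1 cells were each a single resistant clone. Both were left as vehicle controls, given cisplatin (0.5 µM for 6 h), given GSK-J4 (1 µM for 3 days), or pretreated with GSK-J4 and then given cisplatin. GSK-J4 inhibits KDM6A and KDM6B, the enzymes that remove the polycomb mark H3K27me3 from histone H3. In the knockdown experiment, 2102EP-C1 cells were infected with the empty pLKO.1 vector, or with 1 short hairpin RNA to KDM6A together with 1 to KDM6B (sh6A+6B). Either population was given PBS without drug or the same cisplatin dose. The hairpin cells were selected with puromycin and neomycin, and all cells were harvested 24 h after cisplatin. Untreated below means control or pLKO.1 cells, and KDM6 targeting means GSK-J4 or sh6A+6B.

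Cells take up amino acids through solute carriers that differ in what they carry and what they exchange for it. SLC7A11 imports cystine, the source of cysteine for glutathione, and exports glutamate, while SLC7A5 imports large neutral amino acids such as leucine that feed the nutrient sensor mTORC1. Both work at the plasma membrane as heterodimers with the glycoprotein SLC3A2. Many of these genes are known targets of ATF4, the transcription factor of the integrated stress response, and SLC7A11 is also a known target of NRF2, the factor of the oxidative stress response. Glutathione can bind platinum drugs, which is one reason cystine import is studied in cisplatin resistance.

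Values are the deposited log2 CPM (counts per 1e6 counted reads, with 3 prior counts). Depth ran from 26.8 to 49.5 M reads per library (M, 1e6) in NT2/D1-A4 cells, from 30.3 to 53.6 M in the GSK-J4 experiment on 2102EP-C1 cells, and from 79.4 to 100.9 M in the knockdown experiment. Behind the values of the 10 genes were 35 to 46453 reads, 183 to 38590 reads, and 452 to 67038 reads per library. The SD between the 3 libraries of a group had a median over the 10 genes of 0.054, 0.066, and 0.034 log2 units. Differences were tested with limma-trend over all genes of a table, and a gene was called up or down when it passed both a 1.3-fold change and an adjusted p of 0.05 (Benjamini-Hochberg). Bulk RNA cannot tell a change in mRNA per cell from a change in the share of cells that express a gene.

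The knockdown was visible in the target mRNAs. KDM6A was at 7.16, 7.17, and 7.15 log2 CPM in pLKO.1 cells and at 6.14, 6.09, and 6.20 with both hairpins, a log2 fold change of -1.01 (SE 0.027, adjusted p = 2.13e-18). KDM6B was at 4.61, 4.66, and 4.63 against 3.51, 3.61, and 3.75, also -1.01 (SE 0.047, adjusted p = 1.78e-14). The libraries did not overlap for either gene, and the remaining fraction was 0.50 of the pLKO.1 level for each. GSK-J4 acts on the enzymes, so these mRNAs do not check its action. KDM6B mRNA rose with it, by 0.88 on the log2 scale (SE 0.061) for NT2/D1-A4 and by 0.81 (SE 0.065) for 2102EP-C1, and KDM6A mRNA differed by 0.06 in each line.

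The cells carried the markers of their labelled type. Of 11 embryonal carcinoma genes 10 were listed in each table, and their CPM summed to 8281 to 8458 in NT2/D1-A4 controls, 10598 to 10918 in 2102EP-C1 controls, and 10135 to 10191 in pLKO.1 cells. The sums were lower in the matching targeted groups, at 6724 to 6947, 9318 to 9541, and 9421 to 9586. With cisplatin alone they were also below the untreated sums, at 7722 to 8047, 10070 to 10168, and 9612 to 9684. DNMT3B was the one gene of that list called down with GSK-J4 alone, and POU5F1 and LIN28B were not lower. By adjusted p alone, without the fold limit, 7 of the 10 were lower and 1 higher in each line. Of all genes 3905 of 16431 and 2734 of 17035 were lower at this threshold. With the knockdown 5 were lower and 4 higher, against 27.2% and 25.6% of all genes. There TNFRSF8 was called up at 0.40, and DNMT3B was under the fold limit at -0.35. Of 4 yolk sac tumor markers 2 were listed in the GSK-J4 tables, AFP and HNF4A, with sums of 0.66 to 0.90 CPM in NT2/D1-A4 controls and 1.24 to 1.49 with GSK-J4, and 0.29 to 0.34 and 1.35 to 1.38 in 2102EP-C1 cells. These sums are near the floor and include the 3 prior counts of each gene. In 2102EP-C1 controls the means were -3.07 log2 CPM for AFP and -2.36 for HNF4A. With cisplatin alone these sums were 1.09 to 1.34 CPM in NT2/D1-A4 cells, overlapping those with GSK-J4, and 0.31 to 0.54 CPM in 2102EP-C1 cells. None of the 4 yolk sac tumor markers was listed in the knockdown table. Of 4 seminoma markers 3 were listed in each table, with sums of 147 to 155, 142 to 146, and 143 to 146 CPM in the untreated groups. Of these, PRDM1 was called up with KDM6 targeting alone, at 0.59, 0.47, and 0.45. KIT was called down in NT2/D1-A4 cells only, at -0.40, and TFAP2C was not called. The part of these shifts in the transporter changes was not tested.

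Per length of transcript, the transporters differed widely in level. SLC38A2, a sodium-coupled carrier of small neutral amino acids (system A), had the most mRNA of the 10 in every untreated group, at a mean of 147.9 CPM per kb in NT2/D1-A4 controls, 147.4 in 2102EP-C1 controls, and 135.2 in pLKO.1 cells. SLC3A2 followed at 64.5, 105.3, and 115.9 CPM per kb. SLC7A5, SLC7A3, and SLC1A5 lay between 43.0 and 51.1 CPM per kb in NT2/D1-A4 controls, whereas in 2102EP-C1 controls SLC7A3 was at 104.5, SLC7A5 at 59.3, and SLC1A5 at 25.9. SLC7A11 was at 8.16, 8.09, and 10.2 CPM per kb in the 3 untreated groups. SLC1A4 and SLC6A9 had the least mRNA, at 0.90 and 0.58 CPM per kb in NT2/D1-A4 controls and at 1.74 each in 2102EP-C1 controls. In 2102EP-C1 controls, the libraries of SLC3A2 and SLC7A3, of SLC7A11 and SLC7A1, and of SLC6A9 and SLC1A4 overlapped, so these neighbors were not separated by the spread. No neighbors in the order overlapped in NT2/D1-A4 controls or pLKO.1 cells.

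The promoter windows of the transporters were read for the core of the C/EBP-ATF response element, TGATGNAA, which ATF4 dimers are known to bind, on both strands. RefSeq windows (GRCh38.p14, 250 bases before to 50 after a start site) were at hand for 8 of the 10 genes, 14 windows in all, since some genes have several start sites. SLC7A11 and SLC7A3 had none in the table used. The core was in 5 of the 14 windows (35.7%), 1 each for SLC3A2, SLC7A1, SLC1A4, SLC1A5, and SLC38A1, and in 3.62% of the 35116 windows of all genes. Among the windows of genes in the 3 tables it was in 2.29% of 19242. The windows of SLC7A5, SLC38A2, and SLC6A9 held no match. Of these genes, SLC7A5 and SLC6A9 were also called up with GSK-J4 in both lines, and SLC38A2 in NT2/D1-A4 cells. The 5 stretches with the core are shown because they hold this shared motif in genes that were mostly called up with GSK-J4. Each is given 5′ to 3′ on the strand of its gene, with the match in capitals.
SLC3A2, chr11:62881714-62881743, plus strand: ctgaagtaatgtgcaggactccTTACATCA
SLC7A1, chr13:29595659-29595751, minus strand: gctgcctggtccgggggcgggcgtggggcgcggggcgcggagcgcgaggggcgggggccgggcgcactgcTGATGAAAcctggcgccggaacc
SLC1A4, chr2:64989322-64989428, plus strand: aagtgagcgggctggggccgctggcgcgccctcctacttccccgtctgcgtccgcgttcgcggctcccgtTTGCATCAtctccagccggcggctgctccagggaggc
SLC1A5, chr19:46784834-46784981, minus strand: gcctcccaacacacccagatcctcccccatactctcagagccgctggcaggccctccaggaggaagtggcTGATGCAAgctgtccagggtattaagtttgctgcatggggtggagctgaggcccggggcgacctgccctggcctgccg
SLC38A1, chr12:46266487-46266590, minus strand: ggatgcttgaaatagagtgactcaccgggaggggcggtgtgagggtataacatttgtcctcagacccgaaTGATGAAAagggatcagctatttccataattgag
The first base of the match lay at 38 and 8 bases into the transcript for SLC3A2 and SLC7A1, and at -7, -97, and -4 from the start site for SLC1A4, SLC1A5, and SLC38A1. The SLC3A2, SLC1A4, SLC1A5, and SLC38A1 windows belonged to start sites inside the annotated gene rather than at its outer end. The core of the antioxidant response element that NRF2 binds, TGACNNNGC, was in 4 of the 14 windows (28.6%), of SLC7A5, SLC3A2, SLC7A1, and SLC1A5, against 13.3% of all windows. Matches are letters in a window and not measured binding.

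GSK-J4 alone raised all 10 transporter mRNAs in NT2/D1-A4 cells, with 10 of 10 called up, none down, and a median log2 fold change of 1.02. Of all 16431 genes tested, 13.8% were called up and 6.48% down, with a median of 0.0084. In 2102EP-C1 cells 7 of 10 were called up and none down, with a median of 0.79, where 7.79% of 17035 genes were up and 3.12% down. With the knockdown, none of the 10 was called up and 1, SLC1A4, was called down, with a median of -0.0022, where 6.34% of 16459 genes were up and 5.74% down. By adjusted p alone, without the fold limit, 3 of the 10 were higher and 4 lower with the knockdown, against 25.6% and 27.2% of all genes, and voom on the recovered reads called 1. Every GSK-J4 library lay above every control library for 10 of 10 transporters of NT2/D1-A4 cells and 9 of 10 of 2102EP-C1 cells, as for 30.4% and 23.8% of all genes. The 3 tables were normalized separately, so differences between experiments were not tested.

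**Figure D1:**
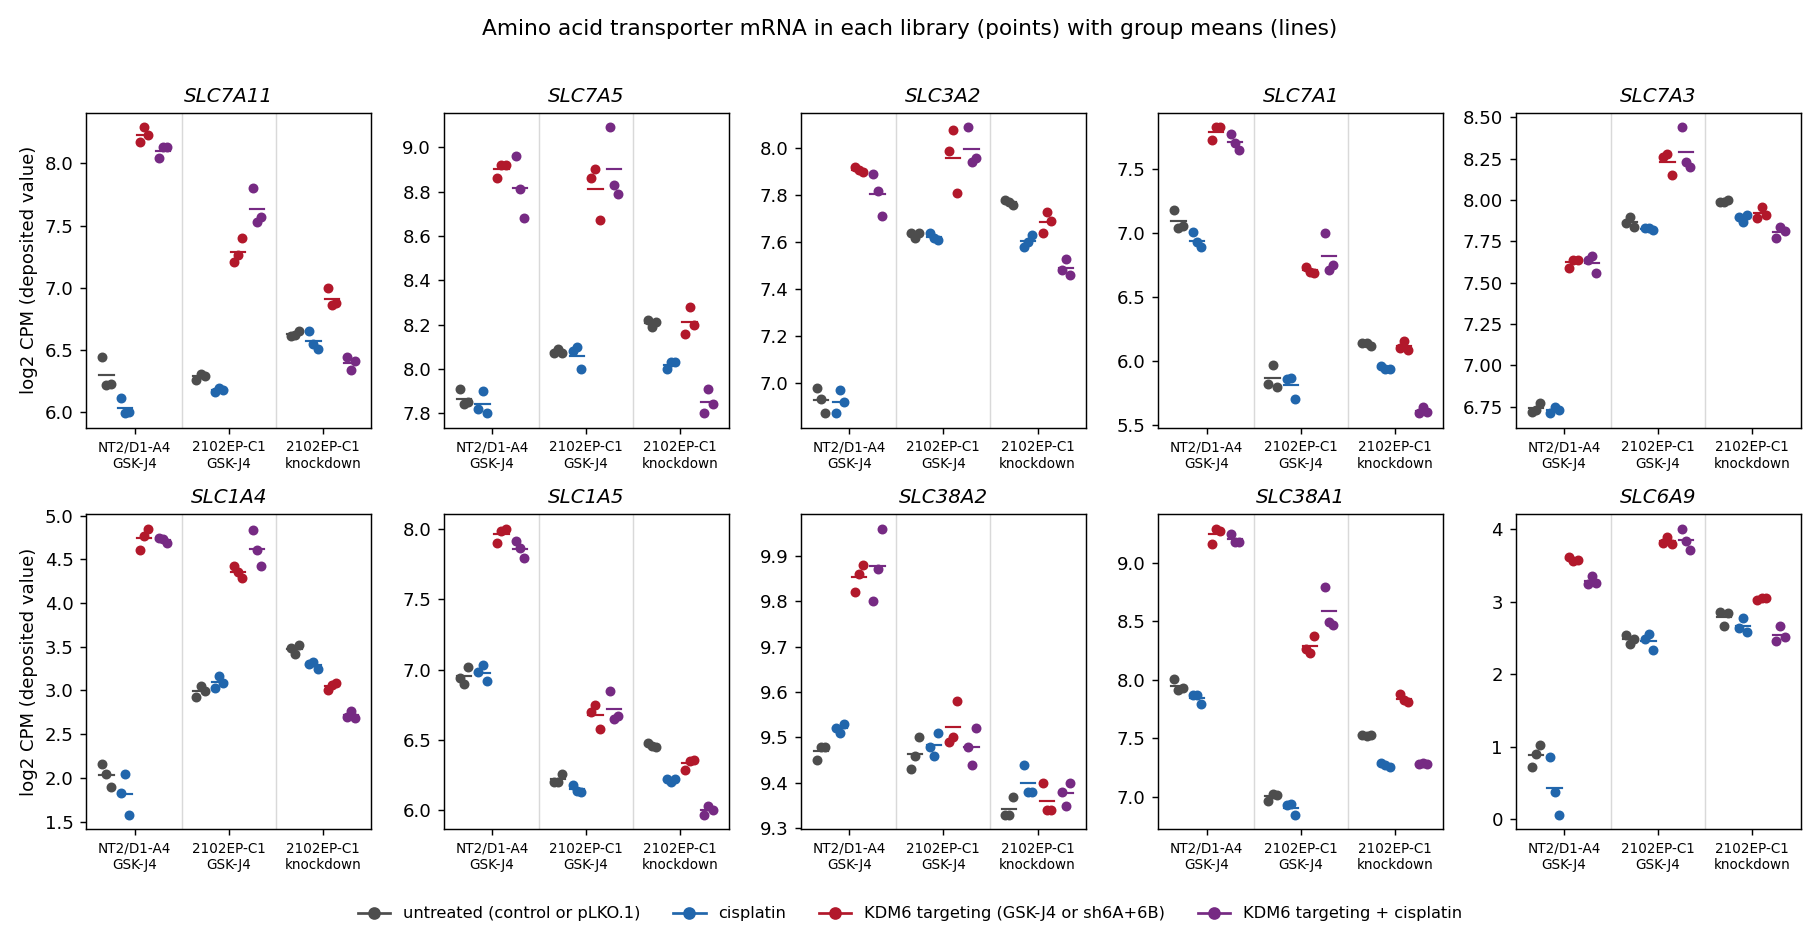
Deposited log2 CPM of each transporter (y axis, with its own range in each panel) in every library of the 3 experiments (x axis, points), with a line at the mean of the 3 libraries of a group. In both GSK-J4 experiments the red and purple groups with GSK-J4 lie above the gray controls for all genes but SLC38A2 in 2102EP-C1 cells, and in the knockdown experiment the purple sh6A+6B + cisplatin group is the lowest or near it for most genes.

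The cystine carrier SLC7A11 (GeneID 23657, chr4:138164097-138242349) was at 6.44, 6.22, and 6.23 log2 CPM in NT2/D1-A4 controls and at 8.17, 8.29, and 8.23 with GSK-J4. The groups did not overlap, and the log2 fold change was 1.93 (SE 0.053, adjusted p = 1.43e-15), a 3.82-fold rise. In 2102EP-C1 cells the controls were at 6.26, 6.31, and 6.29 and the GSK-J4 libraries at 7.21, 7.26, and 7.40, a log2 fold change of 1.00 (SE 0.051, adjusted p = 2.10e-14). With the knockdown, pLKO.1 cells were at 6.61, 6.62, and 6.65 and sh6A+6B cells at 7.00, 6.86, and 6.88. This difference of 0.29 (SE 0.033, adjusted p = 1.09e-07) was larger than the spread between libraries but under the fold limit. An antisense gene, SLC7A11-AS1, overlaps this locus, and the strand setting of the read counting was not given in the sources used here.

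SLC7A5, the leucine carrier (GeneID 8140, chr16:87830023-87869507), rose with GSK-J4 in both lines. NT2/D1-A4 controls were at 7.91, 7.84, and 7.85 log2 CPM and GSK-J4 libraries at 8.86, 8.92, and 8.92, a log2 fold change of 1.04 (SE 0.051, adjusted p = 9.21e-12). In 2102EP-C1 cells they were at 8.07, 8.09, and 8.07 and at 8.86, 8.90, and 8.67, a difference of 0.73 (SE 0.054, adjusted p = 4.56e-11). pLKO.1 and sh6A+6B libraries overlapped, at 8.22, 8.19, and 8.21 against 8.16, 8.28, and 8.20, and the difference was 0.01 (SE 0.026, adjusted p = 0.70).

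The common partner SLC3A2 (GeneID 6520, chr11:62856109-62888860) changed less in 2102EP-C1 cells than the fold limit. Its NT2/D1-A4 controls were at 6.98, 6.93, and 6.87 log2 CPM and its GSK-J4 libraries at 7.92, 7.91, and 7.90, a log2 fold change of 0.99 (SE 0.043, adjusted p = 1.54e-12). In 2102EP-C1 cells 7.64, 7.62, and 7.64 stood against 7.99, 8.08, and 7.81 with GSK-J4, so the groups did not overlap but the difference was 0.33 (SE 0.046, adjusted p = 3.74e-06), a 1.25-fold change. Without GSK-J4 replicate 3, the lowest library of its group, this difference was 0.41 and past the limit. With the knockdown SLC3A2 was slightly lower, by 0.09 (SE 0.021, adjusted p = 0.0016), at 7.78, 7.77, and 7.76 against 7.64, 7.73, and 7.69.

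SLC7A1 and SLC7A3 carry the cationic amino acids arginine and lysine. SLC7A1 (GeneID 6541, chr13:29509414-29595688) went from 7.18, 7.04, and 7.06 log2 CPM to 7.73, 7.83, and 7.83 when NT2/D1-A4 cells received GSK-J4, a log2 fold change of 0.70 (SE 0.046, adjusted p = 5.23e-10). In 2102EP-C1 cells it went from 5.82, 5.97, and 5.80 to 6.74, 6.70, and 6.69, by 0.84 (SE 0.057, adjusted p = 8.56e-12). The knockdown libraries overlapped those of pLKO.1, with a difference of -0.02 (SE 0.024, adjusted p = 0.56).

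SLC7A3 (GeneID 84889, chrX:70925579-70931096) was at 6.72, 6.73, and 6.77 log2 CPM in NT2/D1-A4 controls and at 7.59, 7.64, and 7.64 with GSK-J4, a log2 fold change of 0.88 (SE 0.035, adjusted p = 3.48e-13). In 2102EP-C1 cells, where its untreated level was higher, it was at 7.86, 7.90, and 7.84 against 8.26, 8.28, and 8.15. This difference of 0.36 (SE 0.044, adjusted p = 3.51e-07) separated the groups but was under the fold limit, and was 0.40 without GSK-J4 replicate 3. With the knockdown it was lower by 0.08 (SE 0.020, adjusted p = 0.0028).

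SLC1A4 and SLC1A5 exchange alanine, serine, and cysteine, and SLC1A5 also glutamine. SLC1A4 (GeneID 6509, chr2:64988479-65023865) was scarce in NT2/D1-A4 controls at 2.16, 2.05, and 1.90 log2 CPM, with 109 to 172 reads per library. With GSK-J4 it was at 4.60, 4.77, and 4.85, a log2 fold change of 2.70 (SE 0.099, adjusted p = 9.64e-14) or 6.5-fold. In 2102EP-C1 cells 2.93, 3.05, and 2.99 rose to 4.42, 4.35, and 4.29, by 1.36 (SE 0.078, adjusted p = 2.52e-13). With the knockdown SLC1A4 fell, from 3.48, 3.42, and 3.52 to 3.01, 3.06, and 3.08, by 0.42 on the log2 scale (SE 0.046, adjusted p = 4.34e-08). It was thus called in opposite directions in the 2 experiments on 2102EP-C1 cells.

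SLC1A5 (GeneID 6510, chr19:46774883-46788594) went from 6.94, 6.90, and 7.02 log2 CPM to 7.90, 7.98, and 8.0 when NT2/D1-A4 cells received GSK-J4, a log2 fold change of 1.01 (SE 0.042, adjusted p = 6.87e-13). In 2102EP-C1 cells it went from 6.20, 6.20, and 6.26 to 6.70, 6.75, and 6.58, by 0.46 (SE 0.046, adjusted p = 1.51e-08). With the knockdown it was lower by 0.13 (SE 0.023, adjusted p = 4.34e-05), at 6.48, 6.46, and 6.45 against 6.29, 6.35, and 6.36, a separation of the groups that was under the fold limit.

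The system A carriers SLC38A2 and SLC38A1 take up glutamine, alanine, and other small neutral amino acids. SLC38A2 (GeneID 54407, chr12:46358188-46372773), the most abundant of the 10, had the smallest difference of the 10 with GSK-J4 in both lines. It was at 9.45, 9.48, and 9.48 log2 CPM in NT2/D1-A4 controls and at 9.82, 9.86, and 9.88 with GSK-J4, and the log2 fold change of 0.38 (SE 0.036, adjusted p = 7.76e-08) was just past the limit. It was 0.37 and under the limit without control replicate 1 or GSK-J4 replicate 3. In 2102EP-C1 cells its libraries overlapped, with a difference of 0.06 (SE 0.031, adjusted p = 0.17), and so they did with the knockdown, with 0.02 (SE 0.019, adjusted p = 0.43).

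SLC38A1 (GeneID 81539, chr12:46183063-46269043) rose in both lines with GSK-J4. NT2/D1-A4 controls were at 8.01, 7.91, and 7.93 log2 CPM and GSK-J4 libraries at 9.16, 9.29, and 9.27, a log2 fold change of 1.29 (SE 0.040, adjusted p = 6.23e-15). In 2102EP-C1 cells the values were 6.97, 7.03, and 7.02 against 8.26, 8.23, and 8.37, with 1.28 (SE 0.054, adjusted p = 4.44e-16). With the knockdown SLC38A1 was at 7.53, 7.52, and 7.53 in pLKO.1 cells and at 7.88, 7.83, and 7.81 in sh6A+6B cells, a difference of 0.31 (SE 0.018, adjusted p = 1.15e-12) under the fold limit.

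SLC6A9, the glycine transporter GLYT1 (GeneID 6536, chr1:43996483-44031462), had the lowest counts, with 52 to 76 reads per library in NT2/D1-A4 controls. Its values were 0.72, 0.90, and 1.02 log2 CPM in these controls and 3.62, 3.56, and 3.58 with GSK-J4, a log2 fold change of 2.71 (SE 0.14, adjusted p = 2.51e-11). In 2102EP-C1 cells 2.54, 2.41, and 2.49 rose to 3.81, 3.89, and 3.80, by 1.35 (SE 0.082, adjusted p = 7.93e-13). With the knockdown 2.86, 2.67, and 2.85 stood against 3.03, 3.05, and 3.05, a difference of 0.25 (SE 0.063, adjusted p = 0.0022) under the fold limit. SLC6A9, SLC1A4, SLC1A5, and SLC38A2 each overlap another annotated gene, so some reads could belong to the neighbor.

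**Figure D2:**
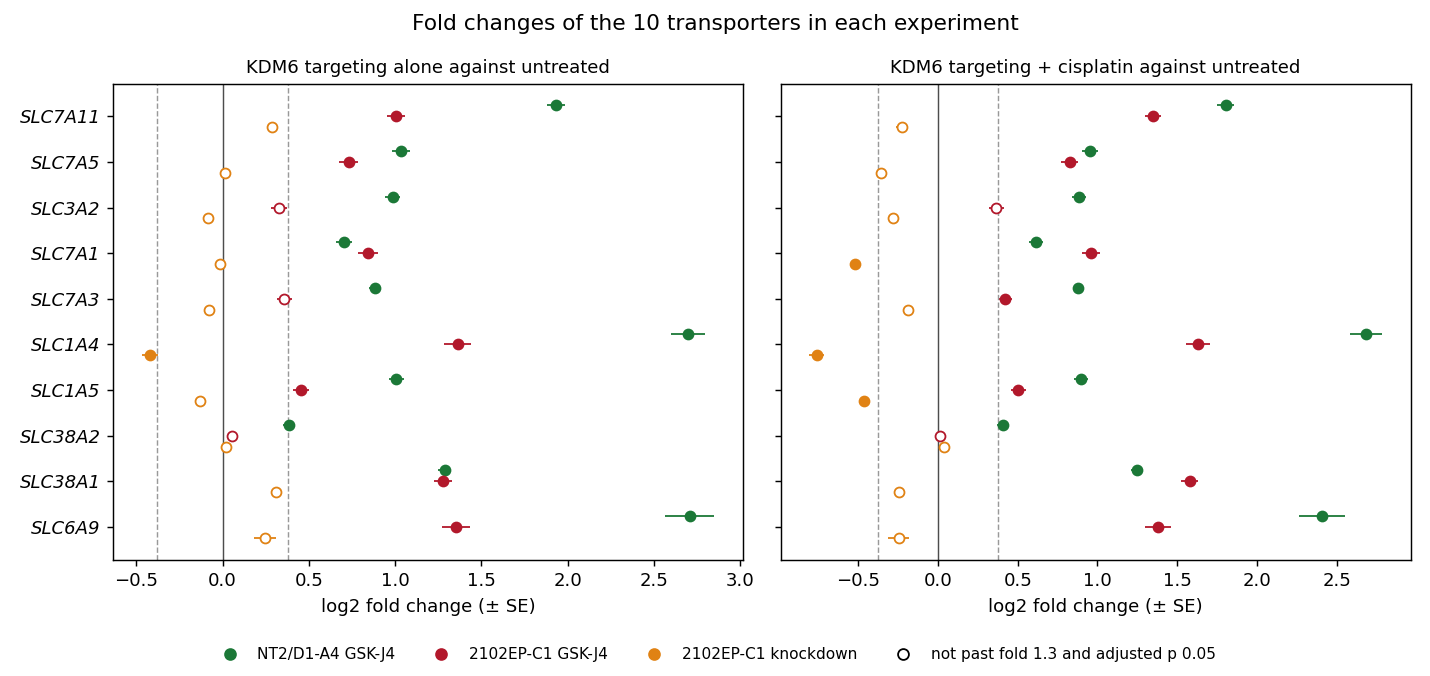
Log2 fold change of each transporter (x axis, point with its SE) against untreated cells for KDM6 targeting alone (left) and KDM6 targeting with cisplatin (right), by experiment. Filled points are past a 1.3-fold change (dashed lines) and an adjusted p of 0.05: 10 of 10 in NT2/D1-A4 cells and 7 of 10 in 2102EP-C1 cells with GSK-J4 alone lie to the right, and 1 of 10 with the knockdown lies to the left.

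Cisplatin alone called none of the 10 transporters in any experiment. In NT2/D1-A4 cells 2.05% of all genes were called up and 0.396% down. There 5 of the 10 had an unadjusted p under 0.05, against 24.7% of all genes, and voom called none. At an adjusted p under 0.05, without the fold limit, 2 of the 10 were lower and none higher. Of 16431 genes, 589 were lower and 961 higher at this threshold. SLC7A11 was lower by 0.26 (SE 0.053, adjusted p = 0.0040), at 6.11, 5.99, and 6.00 log2 CPM below every control library. SLC7A1 was lower by 0.15 (SE 0.046, adjusted p = 0.049), and its groups did not overlap. SLC6A9 was at 0.85, 0.37, and 0.06, a log2 difference of -0.46 (SE 0.14, adjusted p = 0.053), and its groups overlapped. Without cisplatin replicate 1, the highest of its group, SLC6A9 was called down, with -0.67 (adjusted p = 0.0029). It was also called at the unchanged -0.46 without combination replicate 1 (adjusted p = 0.042) or 3 (adjusted p = 0.038).

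In 2102EP-C1 cells cisplatin alone called up 0.881% of all genes and down 0.188%. Of the transporters 1 had an unadjusted p under 0.05, against 16.7% of all genes, and voom called none, and the 10 differences lay between -0.11 (SLC7A11) and 0.10 (SLC1A4). In pLKO.1 cells, where the background was 2.53% up and 0.462% down, 9 of the 10 had an unadjusted p under 0.05, against 44.4% of all genes, and voom called none. In the latter experiment, with deeper libraries and a smaller spread, 7 transporters were lower at an adjusted p under 0.05 with folds under the limit, against 18.2% of all genes, and 1 was higher, against 17.9%. Of these, SLC38A1 went from 7.53, 7.52, and 7.53 log2 CPM to 7.29, 7.27, and 7.26, by -0.25 (SE 0.018, adjusted p = 2.78e-10). SLC1A5 went from 6.48, 6.46, and 6.45 to 6.22, 6.20, and 6.22, also by -0.25 (SE 0.023, adjusted p = 1.15e-08). SLC7A11 was not among them, with -0.05 (SE 0.033, adjusted p = 0.21), and SLC38A2 was higher by 0.06 (SE 0.019, adjusted p = 0.022).

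The combination was compared with the same untreated libraries as the single agents, so these comparisons share them and are given side by side. With both agents 10 of 10 transporters of NT2/D1-A4 cells were called up, with a median log2 fold change of 0.93 and a background of 15.9% up and 9.56% down. In 2102EP-C1 cells 8 of 10 were called up, the 7 named with GSK-J4 alone and SLC7A3 at 0.42, with a median of 0.89 and a background of 12.8% up and 9.77% down. SLC7A3 was under the limit, at 0.35, without combination replicate 1. With sh6A+6B and cisplatin none was called up and 3 were called down, with a median of -0.27 and a background of 8.51% up and 7.5% down. These were SLC1A4 at -0.76 (SE 0.046, adjusted p = 7.91e-13), SLC7A1 at -0.52 (SE 0.024, adjusted p = 5.06e-15), and SLC1A5 at -0.46 (SE 0.023, adjusted p = 2.73e-14). SLC7A5 was near the limit at -0.36 (SE 0.026, adjusted p = 1.95e-11).

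Within cisplatin-treated cells, GSK-J4 called up 9 of 10 transporters in NT2/D1-A4 cells and 8 of 10 in 2102EP-C1 cells, with backgrounds of 12.8% and 10.5% up, and 8.82% of genes down in the latter. SLC38A2 was the gene not called in NT2/D1-A4 cells, at 0.35 (SE 0.036), and SLC38A2 and SLC3A2 were those not called in 2102EP-C1 cells, at -0.0045 (SE 0.031) and 0.38 (SE 0.046). Between cisplatin-treated sh6A+6B and pLKO.1 cells SLC1A4 was called down, at -0.58 (SE 0.046, adjusted p = 1.11e-10), and none of the others was called, with a background of 6.40% up and 8.77% down.

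One library bears on the combination in 2102EP-C1 cells. GSK-J4 + cisplatin replicate 1 was the highest of its group for 9 of the 10 transporters, for example at 7.80 log2 CPM for SLC7A11 against 7.53 and 7.57, and at 8.79 for SLC38A1 against 8.49 and 8.47. The called results that changed without it are given both ways, as are the SLC7A11 and SLC38A1 differences below.

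Cisplatin was also compared within cells already targeted for KDM6. In GSK-J4-treated NT2/D1-A4 cells none was called, where 0.158% of all genes were up and 0.219% down. There 3 had an unadjusted p under 0.05, against 14.6% of all genes, and voom called none. In GSK-J4-treated 2102EP-C1 cells none was called either, with 0.916% of genes up and 1.31% down, and none was called by voom. An unadjusted p under 0.05 was found for 3 of 10 transporters, near the 29.3% of all genes. All 3 were higher at an adjusted p under 0.05 without the fold limit, where 1302 of 17035 genes were higher and 1380 lower. Of the 3 transporters, SLC7A11 was at 7.80, 7.53, and 7.57 log2 CPM against 7.21, 7.26, and 7.40 with GSK-J4 alone, higher by 0.34 (SE 0.051, adjusted p = 5.86e-05). SLC38A1 was higher by 0.30 (SE 0.054, adjusted p = 0.00052), at 8.79, 8.49, and 8.47 against 8.26, 8.23, and 8.37. Both differences separated the groups. Without combination replicate 1 they were 0.26 (adjusted p = 0.00029) and 0.19 (adjusted p = 0.0022). Leaving out GSK-J4 replicate 3 or combination replicate 2 gave 0.40 for SLC7A11, past the fold limit.

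In sh6A+6B cells cisplatin called 4 of the 10 down and none up, where 1.04% of all genes were called down and 2.48% up. SLC38A1 went from 7.88, 7.83, and 7.81 to 7.28, 7.29, and 7.28 log2 CPM, by -0.55 (SE 0.018, adjusted p = 3.57e-16). SLC7A11 went from 7.00, 6.86, and 6.88 to 6.44, 6.34, and 6.41, by -0.52 (SE 0.033, adjusted p = 1.89e-11). All libraries with cisplatin lay below all those without it for both genes, and for 9 of the 10 transporters in all, as for 24.9% of all genes. SLC7A1 changed by -0.50 (SE 0.024, adjusted p = 1.10e-13), from 6.10, 6.16, and 6.09 to 5.59, 5.64, and 5.60. SLC6A9 changed by -0.49 (SE 0.063, adjusted p = 7.65e-07), from 3.03, 3.05, and 3.05 to 2.46, 2.67, and 2.51. SLC7A5 was near the limit, from 8.16, 8.28, and 8.20 to 7.80, 7.91, and 7.84, by -0.37 (SE 0.026, adjusted p = 5.59e-11). SLC38A2 did not follow, at 9.40, 9.34, and 9.34 against 9.38, 9.35, and 9.40.

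**Figure D3:**
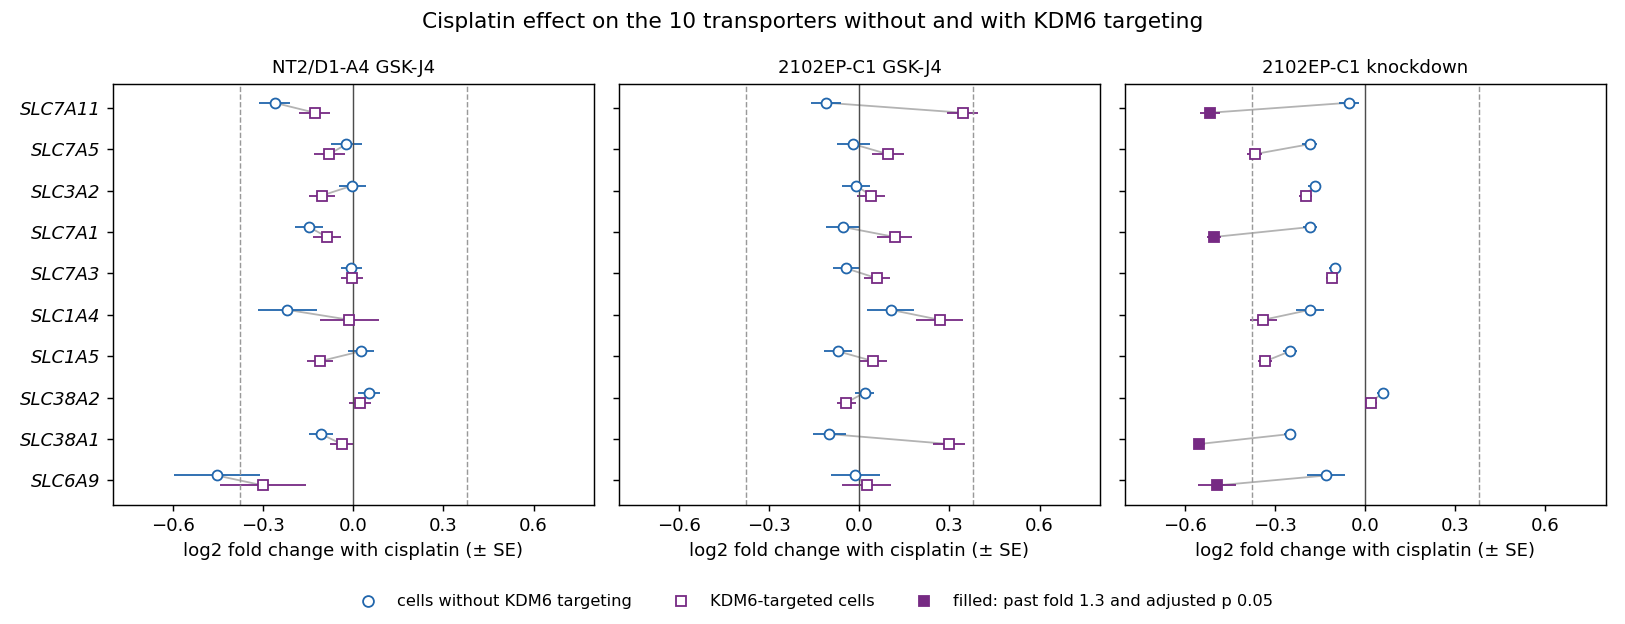
Log2 fold change with cisplatin (x axis, with SE) for each transporter in cells without KDM6 targeting (blue circles) and in KDM6-targeted cells (purple squares), joined by a gray line, in the 3 experiments. Filled symbols are past a 1.3-fold change (dashed lines) and an adjusted p of 0.05: SLC7A11, SLC7A1, SLC38A1, and SLC6A9 in sh6A+6B cells.

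Whether the cisplatin effect itself differed between KDM6-targeted and other cells (the interaction) was tested in the same fit. In NT2/D1-A4 cells none of the 10 passed, where 0.0% of all genes were called up and 0.0426% down. There 1 transporter had an unadjusted p under 0.05, against 7.15% of all genes, and voom called none. In 2102EP-C1 cells with GSK-J4 the interaction was called for SLC7A11, at 0.45 (SE 0.072, adjusted p = 0.00081), and for SLC38A1, at 0.40 (SE 0.076, adjusted p = 0.0062), both upward, with a background of 0.194% up and 0.663% down. Without GSK-J4 + cisplatin replicate 1 they were 0.37 (adjusted p = 0.00040) and 0.29 (adjusted p = 0.0022), both under the fold limit. SLC38A1 was also under it, at 0.37, without cisplatin replicate 3 or GSK-J4 replicate 2.

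In the knockdown experiment 1 of the 10 interactions was called, with a background of 2.67% down and 1.09% up. SLC7A11 had an interaction of -0.46 (SE 0.047, adjusted p = 3.66e-08), since it changed by -0.05 with cisplatin in pLKO.1 cells and by -0.52 in sh6A+6B cells. At an adjusted p under 0.05 but under the fold limit were SLC6A9 at -0.36 (SE 0.090, adjusted p = 0.0024), SLC7A1 at -0.32 (SE 0.033, adjusted p = 4.97e-08), SLC38A1 at -0.30 (SE 0.026, adjusted p = 2.60e-09), and SLC7A5 at -0.18 (SE 0.036, adjusted p = 0.00027). This made 5 of the 10, against 18.0% of all genes that were down at this threshold (17.2% were up). All 10 values were below 0, from -0.46 to -0.01 (SLC7A3) with a median of -0.17, and 50.9% of all genes had a value below 0. SLC6A9 passed the fold limit when any of 4 libraries was left out. SLC7A11 and SLC38A1 thus had interactions of opposite sign with GSK-J4 and with the knockdown in the same clone, and this contrast between the 2 tables was not tested.

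Other genes of amino acid metabolism were counted from lists for comparison, with the 10 transporters left out of each list. For KDM6 targeting alone the counts are to be read against all genes, of which 13.8% were up and 6.48% down for NT2/D1-A4, 7.79% and 3.12% for 2102EP-C1, and 6.34% and 5.74% with the knockdown. Of 38 other amino acid transporters 21 were listed for NT2/D1-A4 cells and 24 in both tables of 2102EP-C1 cells. With GSK-J4 alone 5 were called up and 2 down in NT2/D1-A4 cells, with a median of 0.24, and 4 up and none down in 2102EP-C1 cells, with a median of 0.07. SLC43A1, a carrier of large neutral amino acids, rose by 1.53 and 0.87 on the log2 scale in the 2 lines, SLC6A17 rose by 1.2 in NT2/D1-A4 cells, and the glutamate carrier SLC1A2 rose by 0.76 in 2102EP-C1 cells. The glutamate carrier SLC1A3 fell by 0.55 and the cationic carrier SLC7A2 fell by 0.44 in NT2/D1-A4 cells. With the knockdown 4 were called up and 2 down, among them SLC1A1 at 0.74, SLC6A15 at 0.72, and SLC38A5 at -0.55.

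Most genes of the integrated stress response, with the 4 transporters that belong to it left out, were called up by GSK-J4. With GSK-J4 alone 19 of 21 genes were called up in NT2/D1-A4 cells, with a median log2 fold change of 1.59, and 20 of 21 in 2102EP-C1 cells, with a median of 0.95, and none was called down. PCK2, the mitochondrial enzyme that makes phosphoenolpyruvate, rose from a mean log2 CPM of 1.73 to 5.12 for NT2/D1-A4, by 3.39 (SE 0.085, adjusted p = 3.39e-16), and the stress regulator NUPR1 rose by 3.99 (SE 0.15) from -0.97. TRIB3, a pseudokinase induced by ATF4, rose from 3.65 to 6.65 in 2102EP-C1 cells, by 3.00 (SE 0.072, adjusted p = 2.27e-21), and DDIT3, which encodes CHOP, by 2.31 (SE 0.087). With the knockdown 3 of 21 were called up and none down, with a median of -0.05. Among them were DDIT4, an inhibitor of mTORC1 signaling, at 0.38 (SE 0.029), and NUPR1 at 0.58, which had a mean below 1 log2 CPM. With sh6A+6B and cisplatin together, 2 of 21 were called up and 4 down, against 8.51% and 7.5% of all genes. The median was -0.18, and PCK2 was the lowest at -1.0.

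Of 16 NRF2 targets besides SLC7A11, 13 were listed, and GSK-J4 called up 5 of them for NT2/D1-A4 and 4 for 2102EP-C1, none down. The quinone reductase NQO1 rose by 1.42 (SE 0.041) and 0.80 (SE 0.052), and the ferritin chain FTL by 0.77 (SE 0.047) and 0.63 (SE 0.045). GCLC, the catalytic subunit of the first enzyme of glutathione synthesis, was the lowest of the list in both lines, at -0.19 and -0.25. With the knockdown none was called up and 2 were called down, SRXN1 at -0.61 (SE 0.028) and ABCC2 at -0.38 (SE 0.080).

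Among 12 listed genes of cysteine and glutathione metabolism GSK-J4 called up 6 for NT2/D1-A4 and 2 for 2102EP-C1, none down. The highest were CHAC1, which degrades glutathione, at 2.96 (SE 0.14) and 1.34 (SE 0.20), and CTH, which makes cysteine from cystathionine, at 1.68 (SE 0.051) and 0.67 (SE 0.048). Both are also on the stress response list. With the knockdown CHAC1 was called up, at 0.40 and a mean below 1 log2 CPM, and 1 gene was called down, the glutathione reductase GSR at -0.47 (SE 0.019). Of 15 genes of amino acid sensing by mTORC1 3 were called up for NT2/D1-A4, 5 for 2102EP-C1, and 2 with the knockdown, none down, against 13.8%, 7.79%, and 6.34% of all genes up. SESN2, the leucine sensor, rose by 1.84 (SE 0.052) and 0.81 (SE 0.056) with GSK-J4. DDIT4 rose by 2.74 (SE 0.065) and 0.60 (SE 0.046) in the same 2 experiments. With the knockdown RRAGD, a GTPase of the sensing complex, rose by 0.96 (SE 0.065) and DDIT4 by 0.38 (SE 0.029). SESN2 and DDIT4 are also on the stress response list.

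**Figure D4:**
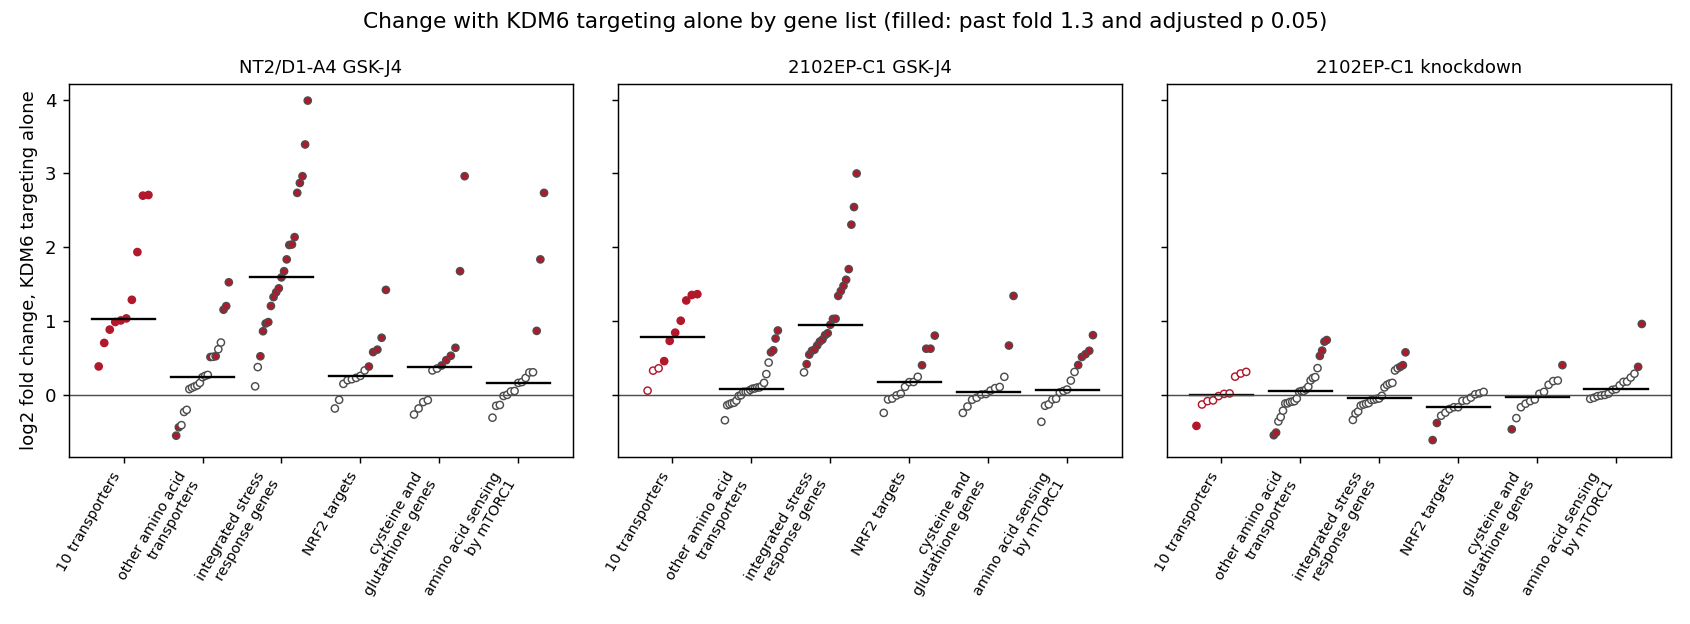
Log2 fold change with KDM6 targeting alone (y axis) of the 10 transporters and of each further list (x axis, 1 point per gene, black line at the median), in the 3 experiments. The transporters and the integrated stress response genes have medians of 1.02 and 1.59 (NT2/D1-A4) and 0.79 and 0.95 (2102EP-C1) for GSK-J4, and of -0.0022 and -0.05 with the knockdown.

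The pattern of each transporter over the 36 libraries, with every table centered on its untreated mean, was compared with that of 11465 genes. The points share arms, libraries, and tables, so the correlations are descriptions. SLC7A11 was most like ADM2 (r = 0.987), ALDH1L2 (r = 0.984), and BLTP3A (r = 0.983), and SLC7A5 was most like EIF4EBP1 (r = 0.988), YARS1 (r = 0.987), and FYN (r = 0.985). SLC3A2 and SLC7A3 were among the closest to each other (r = 0.989). PCK2 was among the 3 genes most like SLC3A2 (r = 0.986), SLC7A3 (r = 0.992), SLC1A4 (r = 0.989), and SLC1A5 (r = 0.991). VAT1 (r = 0.985) was also among those of SLC3A2, and ASS1 (r = 0.987) and GPT2 (r = 0.986) were among those of SLC1A5. The serine synthesis enzyme PHGDH was close to SLC7A3 (r = 0.991). SLC1A4 was most like KIF1A (r = 0.994), followed by the mitochondrial folate enzyme SHMT2 (r = 0.990) and PCK2. SLC38A1 was most like NCOA7 (r = 0.982), the mitochondrial folate enzyme MTHFD2 (r = 0.981), and KLHL42 (r = 0.980). SLC7A1 was most like the alanyl-tRNA synthetase AARS1 (r = 0.987), AKNA (r = 0.980), and ZFAND3 (r = 0.977). SLC6A9 was most like VEGFA (r = 0.985), ADM2 (r = 0.983), and SLC7A11 (r = 0.982). SLC38A2 stood apart from these, with TUBA1A (r = 0.961), MAGED2 (r = 0.948), and ARRDC3 (r = 0.944) as its closest genes.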

How the data were processed

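Reads from stranded mRNA libraries were trimmed (Trimmomatic), aligned (STAR), and assigned to genes (featureCounts) by the authors, who retained genes above 0.5 CPM in 2 samples and scaled libraries by TMM for limma. The submitters' processing notes name STAR, featureCounts, limma, and GRCh38.p14. Tool versions and the strand setting were not given in the sources used here. The deposited values are log2 CPM at TMM-scaled library sizes with a prior count of 3. Under this formula, 100% of values under 50 reads came within 0.05 of a whole number, which gave reads per gene and depth.

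Each table was fitted on its 12 libraries with limma-trend (limma 3.58.1, R 4.3.3), 1 mean per group and no block. In all, 6 contrasts per experiment were tested, two-sided, with Benjamini-Hochberg adjustment over all genes of the table. The study calls the libraries biological replicates, and the labels do not name separate cultures. The p-values therefore set each difference against the spread between these libraries, and whether they extend to separate cultures is not known. The members and gene lists were chosen with earlier results of these data known, and the list counts are not independent support. Named were all 10 members, the 2 largest called rises and falls of each list with KDM6 targeting alone (mean log2 value of at least 1), and the 3 genes most correlated with each member. Other genes named were extremes of a list or markers, chosen after their values were seen. Lengths came from GENCODE 44 (canonical transcripts) and promoters from RefSeq. GeneIDs matched RefSeq for 16414 of 16431, 17020 of 17035, and 16443 of 16459 genes. The fits were tested on simulated data. Alternatives were a stricter filter, only the groups compared, a replicate block, each library left out, voom, library-size scaling, and a prior count of 0.5. Tables were prepared in Python 3.11.15 (pandas 2.3.3, numpy 2.4.6) and drawn with matplotlib 3.10.9.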

Additional observations from a re-analysis of the deposited data

Results flagged for a closer look

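Transporters whose cisplatin effect differed between cells with and without KDM6 targeting, by the interaction test (limma-trend, adjusted p under 0.05), are set out here. With GSK-J4 in 2102EP-C1 cells these were SLC7A11, with an interaction of 0.454 (SE 0.072, adjusted p = 0.00081), and SLC38A1, with 0.399 (SE 0.076, adjusted p = 0.0062). With the knockdown they were SLC7A11 at -0.462 (SE 0.047, adjusted p = 3.66e-08), SLC6A9 at -0.363 (SE 0.090, adjusted p = 0.0024), SLC7A1 at -0.321 (SE 0.033, adjusted p = 4.97e-08), SLC38A1 at -0.302 (SE 0.026, adjusted p = 2.60e-09), and SLC7A5 at -0.183 (SE 0.036, adjusted p = 0.00027). The 2 values with GSK-J4 depended in size on GSK-J4 + cisplatin replicate 1, without which they were 0.37 and 0.29, and the part of that library in the result beyond this was not tested.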

How the results depend on the processing

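Of 321 counts of called transporters under the alternatives, 309 stayed within 1.5 times the reported count. The 12 others all came from leaving out 1 library. Counts then ranged from 0 to 1 for cisplatin alone in NT2/D1-A4 cells, from 0 to 1 for cisplatin within GSK-J4-treated 2102EP-C1 cells, from 0 to 2 for the interaction of GSK-J4 and cisplatin in 2102EP-C1 cells, and from 1 to 2 for the interaction with the knockdown. For KDM6 targeting alone they ranged from 9 to 10, from 7 to 9, and from 1 to 1 in the 3 experiments. Over all 180 gene and comparison pairs, 46 values changed sign, 0 of them with an adjusted p under 0.05 on either side. Single genes were followed further for 131 of these pairs. These were the pairs of KDM6 targeting alone, the combination, and KDM6 targeting within cisplatin, and others with an unadjusted p under 0.05. Of their 2343 values, 2307 kept their direction and side of the thresholds, 8 lost a call, 23 gained one, and 5 changed sign. The sign changes were SLC38A2 in 2102EP-C1 cells, for the combination at -0.0052 without control replicate 1 and -0.0067 without GSK-J4 + cisplatin replicate 3, and for GSK-J4 within cisplatin at 0.011 without cisplatin replicate 3 and 0.014 without GSK-J4 + cisplatin replicate 2, and SLC7A5 with the knockdown alone at -0.020 without sh6A+6B replicate 2. Over all left-out libraries these differences ranged from -0.0067 to 0.031, from -0.024 to 0.014, and from -0.020 to 0.040. None of these differences passed an adjusted p of 0.05. Scaling by library size alone moved the median of all genes to at most 0.056 and called SLC3A2 up at 0.38 for 2102EP-C1 with the combination and within cisplatin, and SLC38A2 at 0.38 within cisplatin in NT2/D1-A4 cells.

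Libraries with the same replicate number did not deviate together: 0, 0, and 2 of 18 pairs per experiment had a correlation over 0.1, so the numbers were not taken as pairs. With the replicate number as a block, 0 calls among the 10 transporters changed, and the interaction of SLC7A11 was 0.45 (adjusted p = 0.0019) with GSK-J4 in 2102EP-C1 cells and -0.46 (adjusted p = 2.44e-10) with the knockdown. Each arm had 3 libraries, the knockdown was done with 1 hairpin per gene, and SLC6A9 and SLC1A4 had the fewest reads in NT2/D1-A4 cells.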
